A study of Mus musculus with 16 samples.

Results

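Cytochrome P450 genes in kidneys of WT and IL-33-deficient mice were followed through the first day of unilateral ureteral obstruction (UUO), in which the outflow of urine from one kidney is closed and the kidney behind it is injured. Genes were taken as members when their symbol began with CYP and a digit, which gave 76 of the 18132 genes of the table, in 17 families numbered from CYP1 to CYP51. RNA of 16 kidneys was hybridized to Illumina MouseRef-8 v2 BeadChips, 1 array per kidney, and each value is a log2 intensity, the brightness of the probes of a gene after quantile normalization. 7 WT and 5 IL-33-deficient kidneys were harvested 24 h after UUO, in set 1 (3 WT, 2 IL-33-deficient) and set 2 (4 WT, 3 IL-33-deficient), and 2 kidneys of each genotype were controls with no set given. WT mice were C57/BL6, and the IL-33-deficient mice had been backcrossed for 10 generations to C57BL/6J BomTac. Per the study's methods mice were 8 weeks old unless stated otherwise, obstruction was made with 1 metal clip on the ureter through the left flank, and operated mice received the analgesic buprenorphine. The labels call the other kidneys control only, so whether they came from sham-operated or untouched mice is not given, and surgery and analgesia cannot be told apart from obstruction. Kidneys are named by genotype and the number in their label, such as WT 3820.

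P450 enzymes are haem proteins that insert oxygen into their substrates, with electrons passed on by P450 oxidoreductase in the endoplasmic reticulum or by ferredoxin in mitochondria. The CYP1 to CYP4 families handle drugs, other foreign compounds and fatty acids, including arachidonic acid, whereas most families with higher numbers make or clear steroids, bile acids, vitamin D or retinoic acid. In the kidney, most P450 protein lies in proximal tubule cells, several mouse genes are higher in males under androgen control, and the CYP4A enzymes are known targets of the fatty acid receptor PPARα.

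Il33, the gene lost in the IL-33-deficient mice, lay at 7.62 and 8.02 in WT control kidneys and between 8.39 and 9.57 in WT kidneys after UUO, but between 6.80 and 7.02 in the IL-33-deficient kidneys. Havcr1, the injury marker KIM-1, rose in every kidney after UUO, least in WT 3820, where it was 3.19 above the control mean against 5.61 to 6.72 in the other 6 WT kidneys. The proximal tubule marker Slc34a1 lay at 12.23 to 14.35 over the arrays and Slc5a2 at 8.31 to 10.20, whereas Lrp2, at 7.05 to 7.63, was near the median of all genes. Of the 9 adrenal markers, Akr1b7 was at 7.21 to 7.69, above the median of all genes. The rest were between 6.66 and 7.205, around or below that median. The liver markers Apoa2 and Ambp stood high in WT 3818 alone, at 10.71 and 10.09, while the liver marker Alb was at no more than 6.92 anywhere. The fat marker Cfd stood high in WT 3818 (9.20) and IL-33-deficient 3822 (8.79). Adipoq, at no more than 7.24 anywhere, was highest in the same kidneys, at 7.05 in WT 3818 and 7.24 in IL-33-deficient 3822. The fat marker Retn was highest in WT 3818 (7.01), and Plin1 and Cidec were highest on other arrays. Y-linked Ddx3y was between 8.46 and 9.02 and Xist between 6.81 and 6.96 on all arrays. Counts are also given without WT 3818, WT 3820 and IL-33-deficient 3822, an alternative chosen after the values were seen.

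Most P450 genes were dim in this tissue. Only 28 of 76 had a mean above 7.05, the median of all genes, and the lowest log2 intensity in the table was 6.59, so a change in the other 48 is compressed by background that the deposited values still hold. All 5 Cyp3a, all 5 Cyp2b and all 11 Cyp2c genes fell below that median, as did the steroid-making Cyp11a1, Cyp11b1, Cyp11b2, Cyp17a1, Cyp19a1 and Cyp21a1. The 13 members on chromosome 19, which also carries Il33, were all among the dim genes, with means of 6.81 to 6.93. In the CYP2 family 13 of 37 genes were above the median and in the CYP4 family 8 of 13.

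Promoters are shown for 3 genes that fell after UUO in both genotypes, 1 each from the Cyp2j, Cyp4b and Cyp2d subfamilies, and for 1 that rose, so that the regions before genes of opposite response can be set side by side. RefSeq promoters of GRCm38.p6, each 300 bases from 250 before the transcription start to 50 from the start on, were matched to 57 of 76 members by symbol. Sequences read 5′ to 3′ along the gene's own strand. Capitals mark 4 motifs. The letters TATAAA stand for the box bound by the basal transcription machinery (the TATA box). For the liver and tubule factor HNF1 the half-site GTTAAT was used. Nuclear receptors were represented by their half-site AGGTCA, and Sp factors by the GC box with letters GGGCGG. All were searched on both strands, so that a run in capitals that reads otherwise is one of these on the other strand. Cyp2j13 is at chr4:96077491-96077790, Cyp4b1 at chr4:115647672-115647971, Cyp2d26 at chr15:82794196-82794495 and Cyp2s1 at chr7:25816476-25816775, all on the minus strand.
Cyp2j13: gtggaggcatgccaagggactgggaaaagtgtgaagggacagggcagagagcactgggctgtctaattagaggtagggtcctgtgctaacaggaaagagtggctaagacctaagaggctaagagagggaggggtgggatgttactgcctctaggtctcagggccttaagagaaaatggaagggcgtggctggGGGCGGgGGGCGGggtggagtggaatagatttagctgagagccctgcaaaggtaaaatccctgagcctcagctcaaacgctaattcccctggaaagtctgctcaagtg
Cyp4b1: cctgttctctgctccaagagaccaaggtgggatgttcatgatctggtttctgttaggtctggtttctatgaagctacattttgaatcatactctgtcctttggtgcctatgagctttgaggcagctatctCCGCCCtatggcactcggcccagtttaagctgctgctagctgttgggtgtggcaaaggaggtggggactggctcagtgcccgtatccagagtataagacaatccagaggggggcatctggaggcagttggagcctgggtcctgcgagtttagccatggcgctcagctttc
Cyp2d26: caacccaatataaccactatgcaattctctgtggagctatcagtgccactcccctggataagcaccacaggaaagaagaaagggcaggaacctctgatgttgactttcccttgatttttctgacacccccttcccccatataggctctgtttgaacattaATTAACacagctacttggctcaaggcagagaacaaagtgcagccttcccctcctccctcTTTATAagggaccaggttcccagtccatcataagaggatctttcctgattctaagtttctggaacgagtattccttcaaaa
Cyp2s1: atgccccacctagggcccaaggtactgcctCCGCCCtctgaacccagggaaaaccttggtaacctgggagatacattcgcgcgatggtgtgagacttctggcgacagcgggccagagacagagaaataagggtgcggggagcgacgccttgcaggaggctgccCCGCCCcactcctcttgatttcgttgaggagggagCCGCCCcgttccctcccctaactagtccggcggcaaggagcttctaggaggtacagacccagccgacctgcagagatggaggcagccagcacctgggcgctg

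The 4 windows had no common arrangement of these motifs. Cyp2s1, which rose, held 3 GC boxes and Cyp2j13 and Cyp4b1, which fell, held 2 and 1, whereas Cyp2d26 had no GC box. On the strand opposite to the gene, Cyp2d26 had an HNF1 half-site and the letters TATAAA, whose run begins at -31 from the start. Cyp2a5, not printed, also rose in both genotypes and had a TATA box on its own strand at -29, an HNF1 half-site, an AGGTCA half-site and no GC box. The letters TATAAA, on either strand, were present in 40.4% of the 57 member promoters and in 14.2% of the 27025 promoters of the table. Among the 16 members with a promoter that were called for UUO below, they were present in 5. The half-site AGGTCA was found in 26.3% of member promoters against 16% of all, GTTAAT in 7.02% against 7.2%, and GGGCGG in 29.8% against 35.9%. Among the same 16 called members, AGGTCA was found in 1, GTTAAT in 2 and GGGCGG in 7. These are matches of letters, and none was tested as a binding site.

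To ask what obstruction did to these genes, kidneys after UUO were compared with the controls of their genotype in one limma model of the 4 groups, and a gene was called at an adjusted p under 0.05. In WT kidneys 14 of 76 P450 genes changed, a share of 18.4% beside 15.2% of all genes. 9 fell, beside 8.22% of all genes lower, and 5 rose, beside 6.97% higher. In IL-33-deficient kidneys 17 changed, or 22.4% beside 21.8% of all genes, 12 of them lower, beside 11.2%, and 5 higher, beside 10.6%. Tested among the 9066 brighter genes alone, 12 of 28 members were called in WT and 17 of 28 in IL-33-deficient kidneys, beside 33% and 44.4% of genes. The median log2 fold change of the 76 was 0.00 in both genotypes, as it was over all genes, and over the 28 brighter members it was -0.22 in WT and -0.29 in IL-33-deficient kidneys, against medians near 0 over all brighter genes. In total 7 members fell in both genotypes (Cyp2d10, Cyp2d12, Cyp2d26, Cyp2j11, Cyp2j13, Cyp4b1 and Cyp51) and 4 rose in both (Cyp4a14, Cyp4a12b, Cyp2s1 and Cyp2a5). Counts rested on the 2 controls of a genotype. Without WT control 3811, 2 members fell and 3 rose in WT, beside 3.28% and 2.53% of all genes, and without WT control 3812 also 2 and 3, beside 2.4% and 2%. Those that fell were Cyp2j13 and Cyp4b1 without 3811, and Cyp2d12 and Cyp2j13 without 3812. Those that rose were Cyp4a14, Cyp4a12b and Cyp2s1 each time. Cyp2d10, Cyp2d26, Cyp2j11, Cyp51 and Cyp2a5 lost the WT call whichever of these controls was left out. Without IL-33-deficient control 3814, 6 fell and 3 rose in IL-33-deficient kidneys, beside 7.53% and 6.67%. There Cyp2d10, Cyp2d26, Cyp51 and Cyp2a5 lost the call in IL-33-deficient kidneys. Each set of mice was also set against the same controls. In WT 0 members fell with set 1 by limma, beside 0.618% of all genes (8 lower at an unadjusted p under 0.05, beside 8.8%), and 14 with set 2, beside 11.9%. In IL-33-deficient kidneys 7 fell with set 1, beside 6.3%, and 13 with set 2, beside 12.4%. Without WT 3818, WT 3820 and IL-33-deficient 3822, 16 fell in WT, beside 11.5%, and 14 in IL-33-deficient kidneys, beside 12.1%.

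**Figure D1:**
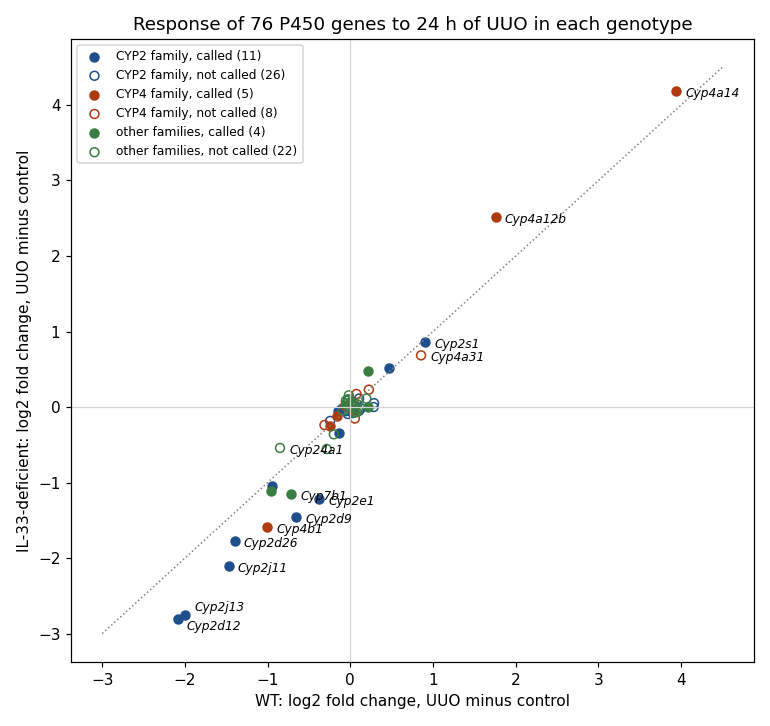
Each point is 1 of the 76 P450 genes, with the log2 fold change of UUO against control in WT kidneys on the x axis and in IL-33-deficient kidneys on the y axis. Filled points were called in at least 1 genotype (adjusted p under 0.05) and the dotted line marks equal responses. 20 genes were called, from Cyp2d12 at -2.09 and -2.81 to Cyp4a14 at 3.94 and 4.19, and the other 56 lie near 0 with the exception of Cyp4a31, Cyp24a1 and a few more.

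By family number, the calls fell for the most part in CYP2 and CYP4, which also hold most members and most of the brighter ones. For these and the lists below, 8.22% of all genes fell and 6.97% rose in WT kidneys, and 11.2% and 10.6% in IL-33-deficient kidneys. Of 37 CYP2 genes, 6 fell and 2 rose in WT kidneys and 8 fell and 2 rose in IL-33-deficient kidneys, and of 13 CYP4 genes 2 fell and 2 rose in each genotype. The 3 CYP1 genes gave 1 rise (Cyp1b1, IL-33-deficient), the CYP7 pair 1 fall (Cyp7b1, IL-33-deficient), and CYP46 1 rise in WT. Cyp51, alone in its family, fell in both genotypes. Nothing was called in CYP3, 8, 11, 17, 19, 20, 21, 24, 26, 27 and 39. Of these families only CYP20, CYP24 and CYP27 hold a gene above the median of all genes.

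The Cyp2d and Cyp2j subfamilies held the deepest falls. Where obstructed kidneys are said not to overlap controls, here and below, the share of all genes that do so was not counted. Cyp2d genes encode drug and steroid hydroxylases, and those of the mouse form a run of close copies on chromosome 15. Cyp2d12 was at 11.56 and 11.08 in WT control kidneys, and from 8.49 to 10.27 with a median of 8.79 after UUO. In IL-33-deficient kidneys it was at 11.26 and 11.66 without obstruction and at 8.93, 9.04, 8.71, 8.38 and 8.22 with it. No kidney after UUO reached any control, and the fall was 4.25-fold in WT (log2 -2.09 ± 0.43, SE, limma adjusted p = 0.00421) and 7.0-fold in IL-33-deficient kidneys (-2.81 ± 0.44, adjusted p = 0.000364).

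Cyp2d26 lay at 9.43 and 9.47 in WT controls against 7.16 to 9.34 (median 7.93) after UUO. The IL-33-deficient values were 8.90 and 9.32 in controls and 7.0, 7.13, 7.58, 7.41 and 7.58 after UUO. WT 3820, at 9.34, was just under the controls and apart from the rest, and the fall was 2.64-fold in WT (-1.40 ± 0.38, adjusted p = 0.0206) and 3.41-fold in IL-33-deficient kidneys (-1.77 ± 0.39, adjusted p = 0.00407). Cyp2d10, at 8.60 and 8.27 in WT controls and 8.17 and 8.21 in IL-33-deficient ones, came to 7.05 to 8.30 (median 7.36) and to 7.11, 6.92, 7.2, 7.11 and 7.38 after UUO. Here WT 3820 overlapped the controls, with a 1.92-fold fall in WT (-0.94 ± 0.23, adjusted p = 0.0121) and a 2.07-fold fall in IL-33-deficient kidneys (-1.05 ± 0.24, adjusted p = 0.00494).

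Cyp2d9, a testosterone hydroxylase known for its higher level in males, was read in both genotypes. Its values were 11.72 and 11.82 in WT controls and 10.20 to 12.05 (median 11.13) in WT kidneys after UUO, which overlapped. In IL-33-deficient kidneys it went from 11.44 and 11.76 to 9.84, 10.04, 9.998, 10.59 and 10.27, with no overlap. The change was called in the latter, at 2.73-fold (-1.45 ± 0.35, adjusted p = 0.00642) against -0.65 ± 0.33 in WT (adjusted p = 0.237), but the difference between the responses was -0.80 ± 0.48 with an adjusted p of 0.973. The other Cyp2d genes gave no call, Cyp2d22 with 0.29 in WT and 0.05 in IL-33-deficient kidneys and Cyp2d40 with 0.11 and -0.05, while Cyp2d13 and Cyp2d34 were dim.

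Cyp2j enzymes are epoxygenases of arachidonic acid, and those on the array lie together on chromosome 4. For Cyp2j13, WT controls were at 11.04 and 11.16 and WT kidneys after UUO at 8.58 to 10.38, with a median of 8.96. IL-33-deficient kidneys went from 10.99 and 11.08 to 8.17, 8.27, 8.15, 8.05 and 8.73. All 12 obstructed kidneys were below all controls, by 4.0-fold in WT (-2.0 ± 0.33, adjusted p = 0.00123) and 6.77-fold in IL-33-deficient kidneys (-2.76 ± 0.35, adjusted p = 7.51e-05). Its neighbour Cyp2j11 was at 11.82 and 11.80 in WT controls and at 9.52 to 11.51 (median 10.27) after UUO. IL-33-deficient values were 11.51 and 11.74 in controls and 9.22, 8.93, 9.65, 9.79 and 10.03 after UUO. Every obstructed kidney was below the controls of its genotype, 2.78-fold in WT (-1.47 ± 0.37, adjusted p = 0.0141) and 4.28-fold in IL-33-deficient kidneys (-2.10 ± 0.39, adjusted p = 0.00108). Cyp2j9 fell by 0.34 in IL-33-deficient kidneys (adjusted p = 0.0417) and gave -0.14 in WT (adjusted p = 0.486), with a difference between the responses of -0.20 ± 0.16 (adjusted p = 0.973). Cyp2j5 and Cyp2j6 were dim and gave no call. Of 6 genes known to respond to androgen in mouse kidney, Cyp2d9, Cyp2j13 and Cyp4a12a among them, 2 fell in WT and 3 in IL-33-deficient kidneys, with Odc1 at -0.73 and -1.21 and Kap, which was not called, at 0.11 and -0.29.

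**Figure D2:**
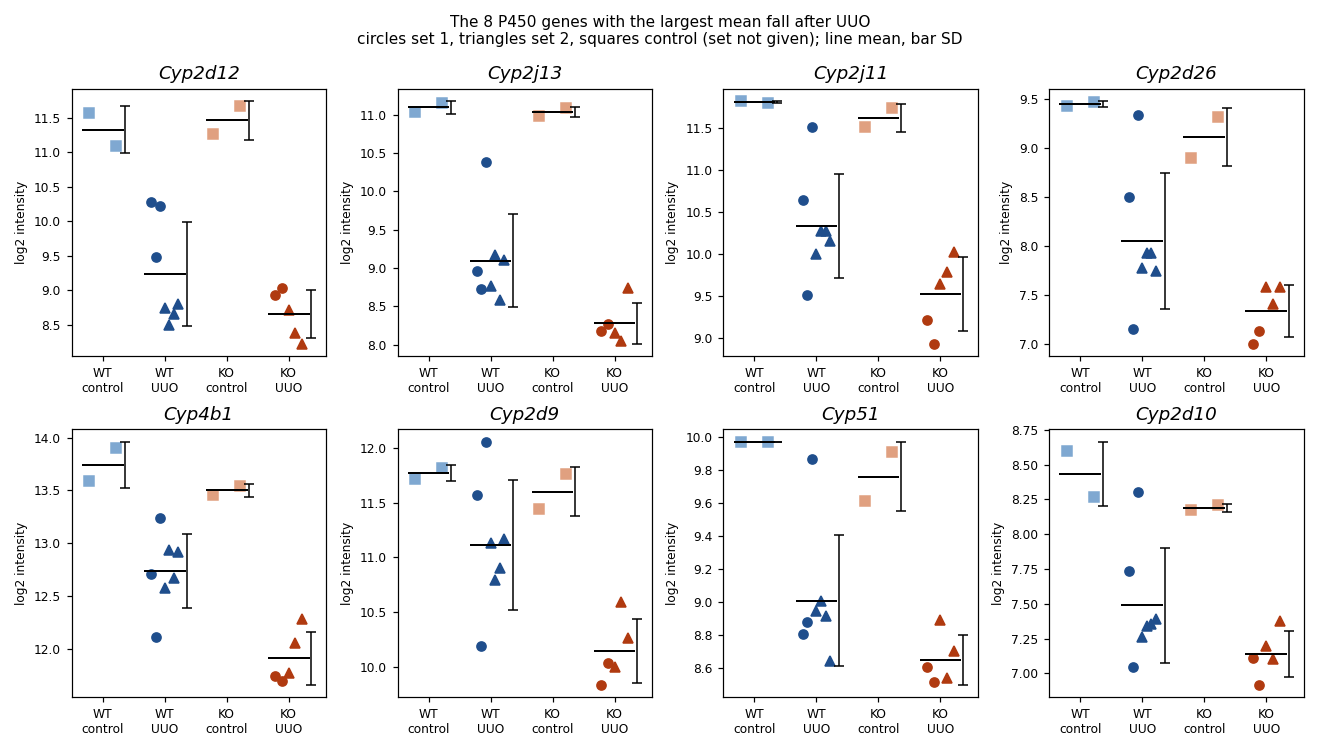
Log2 intensity of the 8 P450 genes with the largest mean fall, by group (KO is IL-33-deficient), with 1 point per kidney, a line at the mean and a bar of 1 SD to its right, and axes that do not start at 0. The highest WT point after UUO is WT 3820 in 7 of the 8 panels, all but Cyp2d12, where WT 3818 is at 10.27 and WT 3820 at 10.22. Every IL-33-deficient kidney after UUO is below every IL-33-deficient control, in genes picked for their fall. The share of all genes that separate so was not counted.

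Among CYP4 genes, close relatives moved in opposite directions after UUO. Cyp4b1, which oxidizes fatty acids and activates certain plant toxins, lay at 13.59 and 13.90 in WT controls and at 12.11 to 13.24 (median 12.70) after UUO. In IL-33-deficient kidneys 13.46 and 13.54 became 11.74, 11.70, 11.77, 12.05 and 12.29. No obstructed kidney reached a control, and the fall was 2.01-fold in WT (-1.01 ± 0.22, adjusted p = 0.00575) and 3.01-fold in IL-33-deficient kidneys (-1.59 ± 0.23, adjusted p = 0.000168).

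Cyp4a14, a fatty acid ω-hydroxylase, rose more than any other member. It was at 8.74 and 8.18 in WT controls and at 11.08 to 13.03 (median 12.43) after UUO, and at 7.89 and 7.91 in IL-33-deficient controls against 12.23, 11.44, 12.25, 12.43 and 12.10 after UUO. The lowest obstructed kidney, WT 3819, was still far above the highest control. The rise was 15.3-fold in WT (3.94 ± 0.37, adjusted p = 2.48e-05) and 18.2-fold in IL-33-deficient kidneys (4.19 ± 0.39, adjusted p = 8.73e-06).

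Cyp4a12b, 1 of a pair of almost identical genes for a fatty acid hydroxylase, was at 9.36 and 9.31 in WT controls and 8.68 and 8.76 in IL-33-deficient ones. After UUO it was at 10.39 to 11.57 (median 11.15) in WT and at 11.52, 11.24, 11.07, 11.22 and 11.14 in IL-33-deficient kidneys. The rise was 3.38-fold (1.76 ± 0.24, adjusted p = 0.000319) and 5.74-fold (2.52 ± 0.25, adjusted p = 1.27e-05), again with no overlap. The row of its twin Cyp4a12a gave 0.05 ± 0.24 in WT and -0.15 ± 0.25 in IL-33-deficient kidneys (adjusted p = 0.934 and 0.770), at 10.49 to 11.89 over all arrays. How far the probes of the Cyp4a genes, and those of the Cyp2d and Cyp2j copies, read one another's transcripts was not tested, so the split between twins is uncertain.

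Cyp4a31 was between 9.61 and 11.35 (median 11.01) in obstructed WT kidneys and at 10.09, 9.43, 10.24, 10.41 and 10.64 in IL-33-deficient kidneys. Its controls were at 9.82 and 10.13 (WT) and at 9.21 and 9.75 (IL-33-deficient), so both genotypes overlapped their controls. The differences of 0.86 ± 0.37 and 0.68 ± 0.39 were not called (adjusted p = 0.154 and 0.266). In set 2, where only set 2 kidneys were set against the same controls, it was called higher in both genotypes. Of the 6 Cyp4f genes, whose enzymes inactivate leukotrienes and related lipids, Cyp4f15 and Cyp4f14 were called in 1 genotype each, both among the dim genes. Cyp4f15 fell by 0.16 in WT (adjusted p = 0.0385) and gave -0.12 in IL-33-deficient kidneys (adjusted p = 0.101). Cyp4f14 fell by 0.25 in IL-33-deficient kidneys (adjusted p = 0.0499) and gave -0.24 in WT (adjusted p = 0.0574). The difference between the responses was called for neither.

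**Figure D3:**
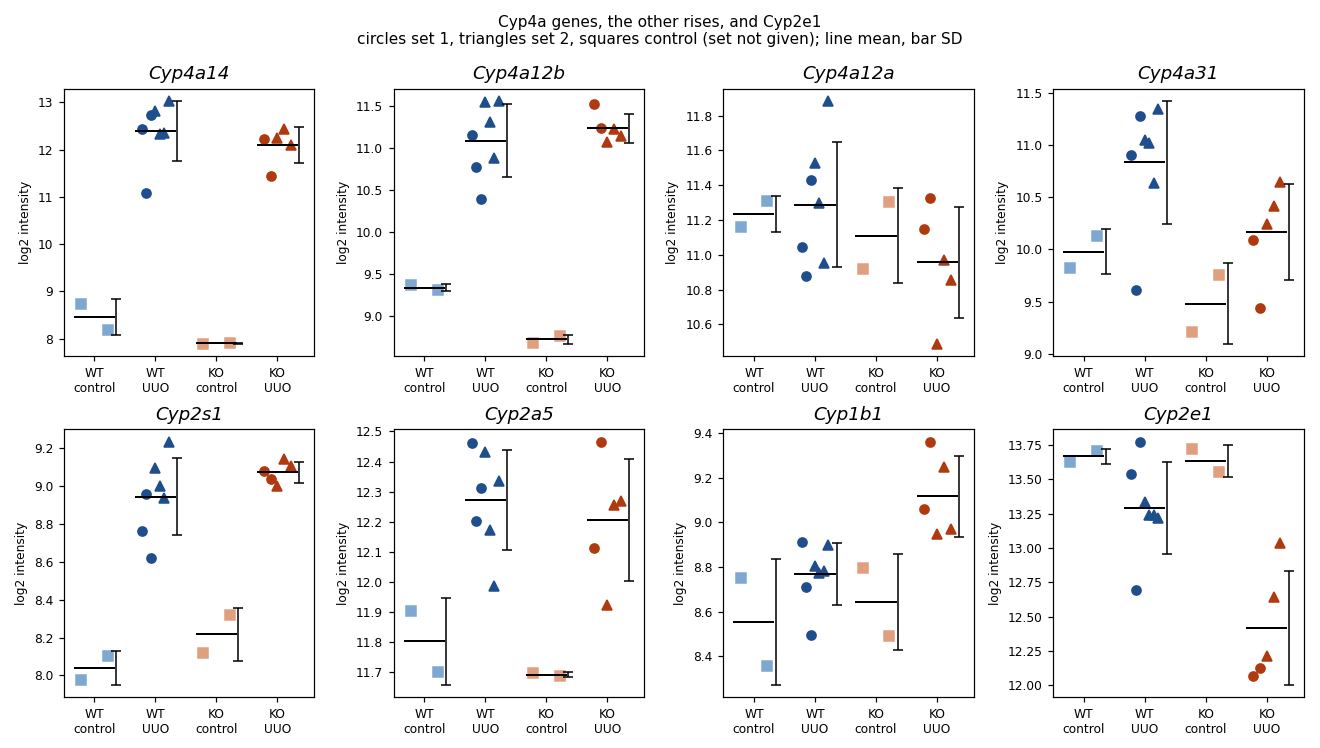
Log2 intensity by group for the 4 Cyp4a genes, the other 3 of the 5 largest mean rises and Cyp2e1, drawn as in the plot of the falls. Cyp4a14 and Cyp4a12b after UUO lie wholly above their controls, Cyp4a12a does not, and Cyp1b1 is the 1 gene here whose IL-33-deficient kidneys after UUO, at 8.95 to 9.36, are all above the WT kidneys, at 8.5 to 8.91.

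The other rises were smaller. Cyp2s1, a P450 of epithelia, went from 7.98 and 8.10 to 8.62 to 9.24 (median 8.96) in WT and from 8.12 and 8.32 to 9.08, 9.04, 9.0, 9.14 and 9.11 in IL-33-deficient kidneys. All obstructed kidneys were above the controls, by 1.87-fold (0.91 ± 0.12, adjusted p = 0.000226) and 1.81-fold (0.86 ± 0.12, adjusted p = 0.000155). Cyp2a5, the coumarin hydroxylase of the mouse, lay at 11.90 and 11.70 in WT controls and 11.70 and 11.69 in IL-33-deficient ones, and after UUO at 11.98 to 12.46 (median 12.31) and at 12.11, 12.47, 11.92, 12.26 and 12.27. That is 1.39-fold in WT (0.47 ± 0.13, adjusted p = 0.0201) and 1.43-fold in IL-33-deficient kidneys (0.51 ± 0.13, adjusted p = 0.0101).

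Cyp1b1, an oestrogen hydroxylase and target of the aryl hydrocarbon receptor, was at 8.75 and 8.35 in WT controls and 8.5 to 8.91 (median 8.78) after UUO, with overlap and no call (0.22 ± 0.13, adjusted p = 0.347). From 8.79 and 8.49 in IL-33-deficient controls it rose to 9.06, 9.36, 8.95, 9.25 and 8.97 (0.48 ± 0.14, 1.39-fold, adjusted p = 0.0196). The difference between these responses, 0.26 ± 0.19, had an adjusted p of 0.973. The other targets of that receptor, Cyp1a1 and Cyp1a2, were dim and were not called. Cyp46a1, which hydroxylates cholesterol in the brain, was called in WT (0.21 ± 0.06, adjusted p = 0.0240) at a level near the floor, 6.68 and 6.71 in controls and 6.74 to 7.0 (median 6.93) after UUO. IL-33-deficient kidneys stood at 6.87 and 6.75 as controls and at 6.83, 6.81, 6.90, 6.79 and 6.74 after UUO, a change of 0.01 ± 0.06.

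Other genes of sterol and vitamin D metabolism followed. Cyp51, the lanosterol demethylase of cholesterol synthesis, was at 9.97 in both WT controls and 8.64 to 9.86 (median 8.91) after UUO. IL-33-deficient kidneys gave 9.61 and 9.91, then 8.61, 8.51, 8.89, 8.54 and 8.70. WT 3820 was near the controls and the rest well below, with falls of 1.95-fold (-0.96 ± 0.22, adjusted p = 0.00816) and 2.16-fold (-1.11 ± 0.23, adjusted p = 0.00239). Cyp7b1, an oxysterol hydroxylase, fell 2.23-fold in IL-33-deficient kidneys (-1.16 ± 0.29, adjusted p = 0.01) and gave -0.71 ± 0.28 in WT (adjusted p = 0.113). Of the 7 sterol and bile acid genes 1 fell and 1, Cyp46a1, rose in WT and 2 fell in IL-33-deficient kidneys, and Cyp7a1, Cyp8b1 and Cyp39a1 were dim.

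For vitamin D, the single call was Cyp2r1, a vitamin D hydroxylase of the liver, which fell by 0.15 in WT (adjusted p = 0.0406) among the dim genes. Cyp24a1, the enzyme that clears active vitamin D, varied too widely to be called. Controls were at 11.38 and 10.48 in WT and at 9.77 and 11.26 in IL-33-deficient kidneys, obstructed WT kidneys at 9.47 to 11.42, and the log2 fold changes were -0.85 ± 0.48 and -0.54 ± 0.50. Cyp27b1, the renal enzyme that makes active vitamin D, gave -0.20 and -0.36 and Cyp27a1 -0.29 and -0.56, none called. Both measured genes of retinoic acid clearance (Cyp26a1, Cyp26b1) and all 6 of steroid synthesis gave no call in either genotype. Among the 26 genes of arachidonic acid metabolism (Cyp2c, Cyp2j, Cyp4a, Cyp4f), 3 fell and 2 rose in WT, beside 8.22% and 6.97% of all genes. In IL-33-deficient kidneys 4 fell and 2 rose, beside 11.2% and 10.6%.

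Genes that serve the P450 enzymes were read beside them. Of 10 measured electron donors and partners, Cyb5b, an electron donor of the outer mitochondrial membrane, fell in both genotypes (-0.88 and -0.95). Por (-0.61), the P450 oxidoreductase, Cyb5a (-0.88) and the epoxide hydrolase Ephx2 (-0.90) fell in IL-33-deficient kidneys. In WT, Por, Cyb5a and Ephx2 gave -0.33, -0.49 and -0.46, none called, and no difference between the responses was called. Of 12 haem genes, Hmox1, which breaks haem down, rose by 1.65 in WT and 1.90 in IL-33-deficient kidneys, and Uros, of haem synthesis, fell by 0.29 and 0.46. Alas1, the first step of haem synthesis, and Blvra rose in IL-33-deficient kidneys (0.58 and 0.38). In WT they gave 0.46 and 0.13, not called, and no difference between the responses was called.

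Of 15 measured regulators, Hnf4a (-0.83 and -1.0), a hepatocyte and tubule factor, and the vitamin D receptor Vdr (-0.99 and -1.28) fell in both genotypes. Cebpb (1.65 and 2.12) and Nfe2l2 (0.51 and 0.54) rose in both, and Nr1h4 (-0.97) and Rxra (-0.27) fell in IL-33-deficient kidneys. WT kidneys gave -0.27 for Nr1h4 and -0.04 for Rxra, not called, and no difference between the responses was called. Ppara (0.01 and -0.06), which is known to drive Cyp4a14, and Ahr (-0.06 and 0.02) were not called. Ahr was dim, at 6.75 to 6.95 on all arrays, and Ppara, at 6.77 to 7.45, lay around the median of all genes. Background may compress a change in either.

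Markers of the tubule were read beside the falls. 2 of 10 proximal tubule markers fell in WT and 8 of 10 in IL-33-deficient kidneys, with medians of -0.62 and -1.05. Called or not, estimates were below 0 for 9 of the 10 in WT and for all 10 in IL-33-deficient kidneys. The log2 of their summed intensities, which the brightest markers lead, was 16.59 to 16.67 in all controls. After UUO it was 15.53 to 16.48 in WT and 15.23 to 15.77 in IL-33-deficient kidneys. Miox fell most, with -2.05 and -3.13. Of the 5 markers of injured tubule measured, 4 rose in WT and 5 in IL-33-deficient kidneys. Of the 6 leukocyte markers 2 rose and 1 fell in WT and 3 rose and 1 fell in IL-33-deficient kidneys, with S100a8 at 1.54 and 2.58, Lyz2 at 0.35 (not called) and 1.5, and Csf1r at -0.41 and -0.36. No difference between the responses was called for any marker of these lists. Whole-kidney RNA cannot tell fewer tubule cells from less RNA per cell, and the part of either in the P450 changes was not tested.

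Kidneys did not rank alike for the falling genes and Cyp4a14. Against the control mean of its genotype, the median of the 7 genes lower in both genotypes was -0.30 in WT 3820 and -1.05 in WT 3818, and -1.52 to -1.84 in the other 5 WT kidneys. The 5 IL-33-deficient kidneys lay between -1.53 and -2.11. In WT 3820, Cyp4a14 was 4.27 above the control mean, within the range of 3.86 to 4.57 of the 4 WT kidneys of set 2, whereas WT 3819, with the deepest fall of the 7 genes in WT, had the smallest Cyp4a14 rise, 2.62.

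**Figure D4:**
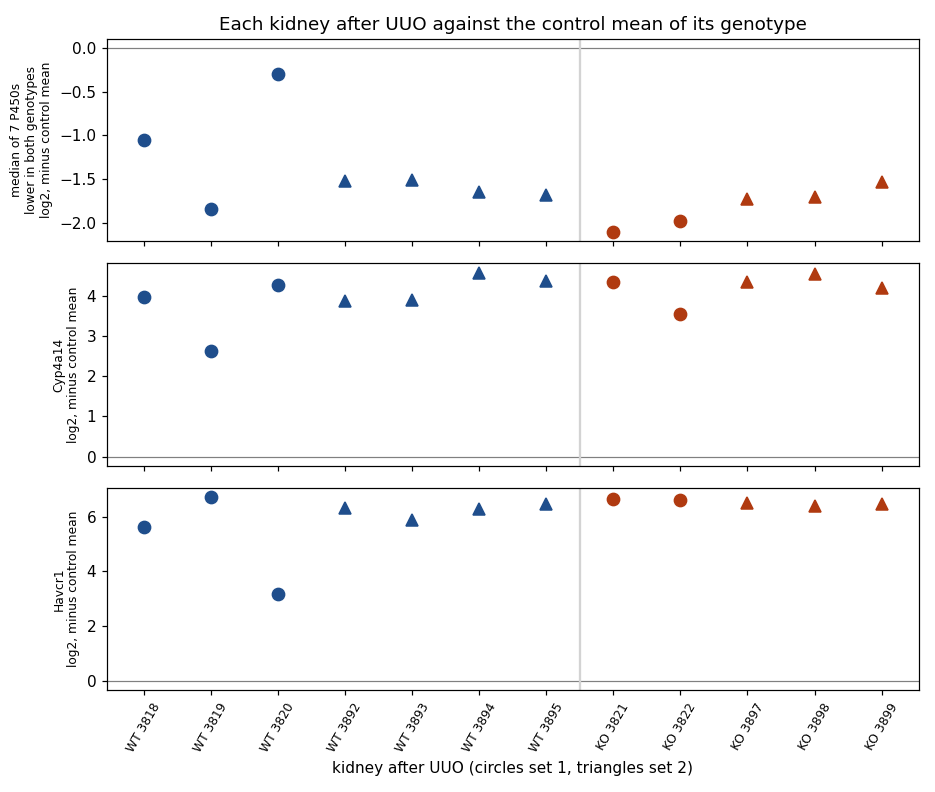
Each of the 12 obstructed kidneys (x axis; WT blue, IL-33-deficient, labelled KO, red) as log2 difference from the control mean of its genotype, for the median of 7 falling P450 genes (top), Cyp4a14 (middle) and the injury marker Havcr1 (bottom). WT 3820 has the smallest P450 fall, -0.30, and the smallest Havcr1 rise, 3.19, but a Cyp4a14 rise of 4.27.

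Whether the genotypes responded differently was tested as the interaction in the same model. No member was called, nor was any gene at all (0% at an adjusted p under 0.05 with limma, the 1 tool run), and at an unadjusted p under 0.05 there were 4 members, beside 4.74% of all genes. Those were Cyp46a1 (-0.21 ± 0.09), Cyp2e1 (-0.84 ± 0.36), Cyp17a1 (0.14 ± 0.06) and Cyp4a12b (0.77 ± 0.34), where a minus sign is a lower response in IL-33-deficient kidneys. All had an adjusted p of 0.973. The responses rest on 2 controls per genotype.

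Control kidneys of the 2 genotypes gave no call either, with 0% of all genes called at an adjusted p under 0.05 and 2 members at an unadjusted p under 0.05 beside 3.66% of genes. These were Cyp2j6 (6.84 and 6.91 in WT, 6.78 and 6.68 in IL-33-deficient kidneys, -0.15 ± 0.05) and Cyp2r1 (-0.13 ± 0.06), both dim. Cyp4a12b (-0.62 ± 0.29), Cyp4a14 (-0.56 ± 0.47) and Cyp4a31 (-0.50 ± 0.46) gave the lowest estimates.

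The question of the study was what loss of IL-33 does after UUO, and 5 IL-33-deficient were compared with 7 WT obstructed kidneys. These kidneys also enter the responses above. At the study's threshold (unadjusted p under 0.05, adjusted p under 0.25, fold change above 1.3) no P450 gene was called with limma, the 1 tool run, beside 0.011% of all genes, and none at an adjusted p under 0.05, beside 0.00552%. At an unadjusted p under 0.05 there were 15 members, beside 10.3% of all genes, and 14 of them were lower in IL-33-deficient kidneys, beside 4.78% of genes lower. Over the 76 genes the median log2 difference was -0.03, and over the 28 brighter ones -0.32, with 22 of 28 below 0, against a median of 0.01 and 46.3% below 0 over all brighter genes. Genes that share a tubule or a cluster are not independent, and no test was made of the list.

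Cyp4b1 had the smallest p, with IL-33-deficient kidneys 1.77-fold lower (-0.83 ± 0.17, limma adjusted p = 0.304, exact permutation p = 0.00505, two-sided, over all splits of the 12 kidneys into 5 and 7). Only WT 3819, at 12.11, lay within the IL-33-deficient range of 11.70 to 12.29. Cyp2e1, which oxidizes ethanol and acetone, was at 12.07, 12.12, 12.21, 12.64 and 13.03 in IL-33-deficient and at 12.69 to 13.77 (median 13.24) in WT kidneys, with WT 3819 lowest. It was 1.83-fold lower (-0.88 ± 0.19, adjusted p = 0.304, exact permutation p = 0.00253). Controls of Cyp2e1 were at 13.63 and 13.71 (WT) and at 13.72 and 13.55 (IL-33-deficient). After UUO it was 2.33-fold below controls in IL-33-deficient kidneys (-1.22 ± 0.26, adjusted p = 0.00282), against -0.38 ± 0.25 in WT (adjusted p = 0.396).

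Cyp2d9 was 1.96-fold lower (-0.97 ± 0.26, adjusted p = 0.311, exact permutation p = 0.0101), Cyp2j13 1.77-fold (-0.82 ± 0.26, adjusted p = 0.330, exact permutation p = 0.00884) and Cyp2j11 1.76-fold (-0.82 ± 0.29, adjusted p = 0.376, exact permutation p = 0.0253). WT 3819 lay within the IL-33-deficient range in each, as did WT 3893 for Cyp2j13 and WT 3895 for Cyp2j11. These 3, with Cyp4b1 and Cyp2e1, also stand in a list that the study chose on these samples, so their direction is no independent evidence. Cyp2d40, close to the median of all genes, at 6.92, 6.82, 7.0, 7.08 and 7.02 against 6.97 to 7.25 (median 7.15) in WT, differed by -0.18 ± 0.05 (adjusted p = 0.324, exact permutation p = 0.0139).

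Cyp1b1 went the other way. Every IL-33-deficient kidney was above every WT kidney, which was so of 0.419% of all genes, and the difference was 1.27-fold (0.35 ± 0.08, adjusted p = 0.311, exact permutation p = 0.00126, the smallest these splits can give). In no member was every IL-33-deficient kidney below every WT kidney, beside 0.336% of all genes. Cyp4a14 differed by -0.31 ± 0.29 and Cyp4a12b by 0.15 ± 0.19 (adjusted p = 0.775 and 0.849).

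**Figure D5:**
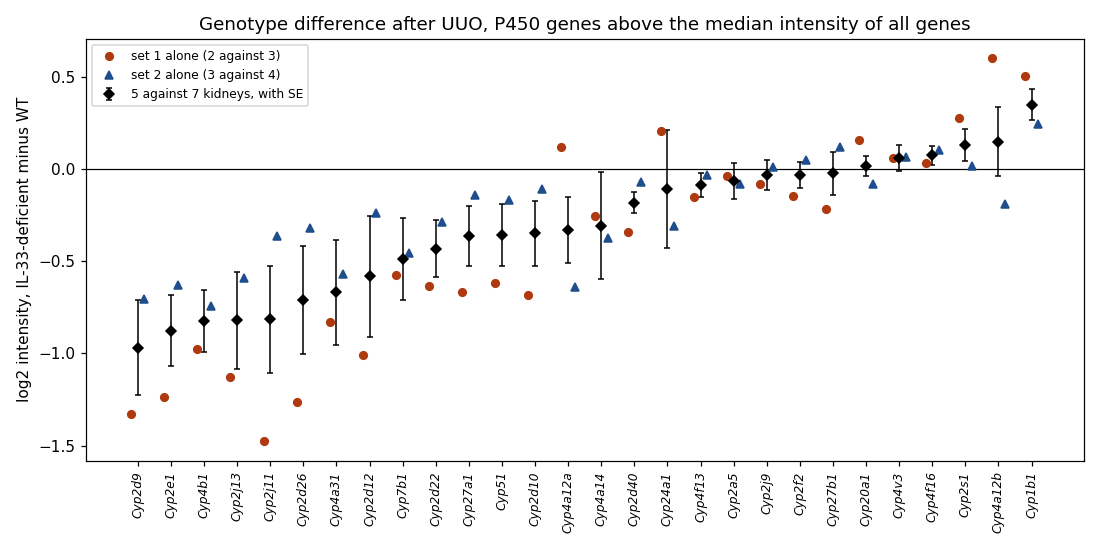
Log2 difference between IL-33-deficient and WT kidneys after UUO for the 28 P450 genes brighter than the median of all genes. Black diamonds are the 5 against 7 kidneys with SE, circles set 1 alone and triangles set 2 alone. Cyp2d9 is lowest at -0.97 and Cyp1b1 highest at 0.35, and for Cyp2j11 the sets give -1.48 and -0.36.

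Direction held within both sets of mice for these genes, but the size did not. In set 1 (2 against 3) the differences were -1.48 for Cyp2j11, -1.33 for Cyp2d9, -1.24 for Cyp2e1, -1.13 for Cyp2j13 and -0.97 for Cyp4b1. In set 2 (3 against 4) they were -0.36, -0.70, -0.63, -0.59 and -0.74, and Cyp1b1 gave 0.51 and 0.24. Exact permutation tests within a set, run on 17 named genes alone, cannot go below p = 0.1 in set 1 or 0.0286 in set 2. Cyp2d40 and Cyp46a1 were at that limit in set 1, and Cyp4b1, Cyp2d9, Cyp2e1, Cyp2d26, Cyp2j6 and Cyp1b1 in set 2. Several of these were named for a small p in the same kidneys, and the share of all genes at the limit was not counted. Cyp4a12b changed sign between the sets, 0.60 and -0.19. In a fit with set as blocking factor the adjusted p came to 0.274 for Cyp4b1, Cyp2e1 and Cyp1b1 and 0.279 for Cyp2d9.

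The count at the study's threshold varied with the kidneys, the model and the filter. The study's contrast had 4 WT arrays, which are not named in the sources used here. Against the 4 WT kidneys of set 2 the 5 IL-33-deficient kidneys gave 8 members, all lower, beside 0.904% of all genes lower: Cyp2d26, Cyp2d9, Cyp2e1, Cyp2j11, Cyp2j13, Cyp4a31, Cyp4b1 and Cyp7b1. Set 2 alone gave 4, beside 0.314%, and all 12 kidneys with the 4 groups in one model 4, beside 0.513%. Array weights gave 4, beside 0.347%, and the brighter genes alone 5, beside 1.36%. Without WT 3819 there were 9, beside 1.21%, and without WT 3820 there were 3, beside 0.11%. Without IL-33-deficient 3899 there were 2 lower, beside 0.364%, and Cyp1b1 higher, beside 0.149%. Leaving out WT 3818, WT 3820 and IL-33-deficient 3822 together gave 0 lower by limma, beside 0.00552% (7 at an unadjusted p under 0.05, beside 3.84%). Proximal tubule markers moved the same way, with 10 of 10 lower in IL-33-deficient kidneys (median -0.47, Miox -1.04, Slc22a6 -0.91, Slc34a1 -0.91), none called at the study's threshold and 6 at an unadjusted p under 0.05. Of 6 leukocyte markers measured, 5 were higher in IL-33-deficient kidneys (median 0.11, Lyz2 0.69, Cd68 0.39), none called at the study's threshold and 2 at an unadjusted p under 0.05. The log2 of the summed intensities of the 6 was 10.64 to 11.73 in WT and 11.07 to 11.87 in IL-33-deficient kidneys. Ptprc, the marker of all leukocytes, was at 6.76 to 6.92 on all arrays. The part of either marker list in the P450 difference was not tested.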

How the data were processed

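Each value was the intensity of 1 gene on 1 array, imported and scaled alike by the authors with beadarray, after scanning with BeadStudio 2 per the labels, and deposited on a linear scale without detection p-values. Array medians were 132.3 to 133.4 and the lowest intensity 95.475, so background remained. The 16 arrays were quantile-normalized again, put on the log2 scale and fitted over all 18132 genes with limma 3.58.1 in R 4.3.3 (Benjamini-Hochberg adjustment), in one model of 4 groups, or over the 12 obstructed kidneys for the genotype comparison. Exact permutation tests were two-sided and ran over every split, in Python 3.11.15 with numpy 2.4.6. The model was tested on simulated data. Members, lists and tests were chosen with earlier results of these data known. Genes named with each array's value were the 8 largest mean falls and 5 largest mean rises among called members, the 5 smallest p-values by genotype, 5 genes the study lists, and the smallest p for the interaction and for controls. Alternatives changed normalization, background, filter, fold minimum, samples, set and array weights, and left out each array. The number of arrays limits precision, and p-values measure the spread between these arrays.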

Additional observations from a re-analysis of the deposited data

Results flagged for a closer look

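Single kidneys stood apart from the rest of their group in 3 of 34 sets of obstructed kidneys searched by Dixon's test, which flags about 1 in 20 by chance. WT 3820 was highest for Cyp2j13, at 10.38 with the next WT kidney at 9.17 and the lowest at 8.58, and for Cyp51, at 9.86 with the next at 9.01 and the lowest at 8.64. WT 3819 was lowest for Cyp4a14, at 11.08 with the next at 12.32 and the highest at 13.03.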

How the results depend on the processing

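No paired analysis was possible because the array numbers are not shared between groups. Of the counts of called members recomputed under alternatives, 243 stayed within 1.5 times the main count and 21 did not. For WT kidneys, 9 members fell: 16 without the 3 kidneys WT 3818, WT 3820 and IL-33-deficient 3822, 5 with WT arrays alone, 0 with set 1 and 14 with set 2. 5 rose, and 3 with set 1. For IL-33-deficient kidneys, 12 fell, and 7 with set 1. Between the genotypes after UUO, 0 were lower at the study's threshold, 4 with 4 groups in one model, 8 against the WT kidneys of set 2, 4 with array weights, 5 among brighter genes and 4 in set 2. Leaving out 1 array at a time, the members that fell numbered 2 to 13 in WT and 6 to 14 in IL-33-deficient kidneys, those that rose 3 to 6 in each genotype, and by genotype after UUO 0 to 9 were lower and 0 to 1 higher. The low ends came without WT control 3811 or 3812 and without IL-33-deficient control 3814. Signs changed for differences near 0: Cyp4a12b by genotype (0.15) was -0.0942 against set 2 WT kidneys and -0.19 in set 2, Cyp2a5 by genotype (-0.07) was -0.13 to 0.0044 with 1 array left out, and for the response in IL-33-deficient kidneys Cyp2d40 was 0.0145 in set 2. With 1 array left out, the response in IL-33-deficient kidneys was -0.0558 to 0.0676 for Cyp46a1 and -0.0325 to 0.0636 for Cyp2j6, and Cyp2j6 in WT was -0.0687 to 0.0058, and 0.0006 with background subtracted. The causes were not tested. Of the named genes' fold changes, 1247 kept direction and side of the threshold, 42 lost and 39 gained the call.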

Other observations

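WT 3818 held the highest value of 14 of the 76 P450 genes, against 0 to 9 for each other array, noticed after the values were seen. The share of all genes highest on that array was not counted. Cyp2c70 was at 8.19 there and at 6.75 to 7.03 on the other arrays, and Cyp8b1 at 7.69 against at most 7.05. Cyp7a1 and Cyp27a1 led there by less, at 7.03 with the next array at 6.92 and at 9.965 with the next at 9.948. Of the same sterol and bile acid list, Cyp7b1, at 11.16, and Cyp39a1, at 7.02, were higher on other arrays. The liver markers Apoa2 and Ambp were at 10.71 and 10.09 on that array, whereas Alb (6.79), Fgb (6.675) and Serpina1a (8.69) were higher on other arrays.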
